A study of Mus musculus with 7 samples.

Results

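The genes described here are those whose symbol is Zfp followed by a digit, the mouse naming series for zinc finger proteins. They were chosen by symbol alone from a table of 9999 named genes, each represented by the probe set with the highest mean signal over all 7 arrays, and 241 genes matched. By their symbols, 3 of these are opposite-strand transcripts or a pseudogene (Zfp652os, Zfp85os and Zfp862-ps). The arrays carried RNA of RAW264.7 cells, a macrophage-like mouse line from a leukaemia virus-induced tumour, that had received no treatment. A group of 4 arrays labelled RAW GfI1-1 at T0 (replicates 1 to 4), which the series calls Gfi1 knockout, was set against 3 arrays labelled RAW WT at T0 (replicates 1 to 3). Both groups come from this 1 cell line. How Gfi1 was disrupted, which part of the gene was edited and how many clones were used could not be read from the labels. The replicates are labelled biological, but whether each was its own culture is not said, so the p-values cover array-to-array spread that may be technical.

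Most Zfp proteins bind DNA through repeated zinc fingers, small loops held by a zinc ion between cysteine and histidine residues. Many also carry a KRAB domain, which recruits the corepressor TRIM28 and, through it, histone methylation, so that a large part of the family silences genes and retroviral sequences. A smaller part works on RNA. Zfp36 (tristetraprolin) and its relatives bind AU-rich elements in mRNAs and bring in the enzymes that shorten the poly(A) tail, and in macrophages this limits the life of cytokine mRNAs. Gfi1 is itself a zinc finger repressor, but its symbol does not belong to this series.

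All values are log2 signal of a probe set, and differences are the mean of the arrays labelled knockout minus the mean of the arrays labelled wild type. The Gfi1 probe set was higher in the arrays labelled knockout, at 4.93, 5.02, 3.97 and 3.97 in replicates 1 to 4, against 2.66, 2.85 and 2.98 in the wild-type arrays. Its position with respect to the edited part of the gene is unknown, so it does not check the labels, and every direction reported rests on them. Of the 8 measured macrophage markers, all had means of at least 7.03 in both groups, and 5 of the 8 were lower in knockout (median of the 8, -0.44), beside 21.6% of all genes. With random blocks, a second fit described below, 3 of the 5 passed (Adgre1, Cd68 and Csf1r). Over all genes 904 passed that fit, against 4305 in the main test. Whether the lower macrophage markers bear on the Zfp genes was not tested. None of the listed T cell, B cell and epithelial markers was among the 9999 genes, and the fibroblast and erythroid lists had 1 and 2 genes, with no mean above 4.94 in knockout or 5.62 in wild type. The arrays labelled knockout fell into pairs. Over the Zfp genes, the SD of the log2 difference was 0.18 between replicates 1 and 2 and 0.14 between replicates 3 and 4, but 0.48 to 0.50 between the pairs, and 0.14 to 0.20 between wild-type arrays. No label separates the pairs, so these arrays were tested as 1 group, with both pairs shown apart.

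The Zfp genes had no common direction, and about as many rose as fell. Of the 241 genes, 48 were higher and 44 were lower in knockout at a limma p of 0.05, adjusted over all 9999 genes by the Benjamini-Hochberg method, and 149 did not pass. With all arrays, the 48 and 44 genes are 19.9% higher and 18.3% lower, beside 21.5% and 21.6% of all 9999 genes. In either direction 38.2% were called, beside 43.1%. Leaving out wild-type replicate 2 or 3 lowered the first count to 29 or 30, and leaving out wild-type replicate 1 lowered the second to 28. Calls over all genes fell too. Without wild-type replicates 1, 2 and 3 in turn, 29%, 25.3% and 27.4% of the Zfp genes were called, beside 32.8%, 28.8% and 29.8% of all genes. The median difference was -0.03 (0.02 after quantile normalization), against -0.01 over all genes, and the middle 50% of the Zfp genes lay between -0.29 and 0.23. Called rises had a median size of 0.54 and called falls of 0.65. In knockout replicates 1 to 4 the median differed from wild type by -0.03, -0.03, 0.03 and 0.02. In RNA pooled from a culture, fewer cells with a transcript and less of it per cell cannot be told apart.

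Large changes were few. Among genes that passed the test, 5 Zfp genes were at least 2-fold higher and 6 at least 2-fold lower, which is 2.07% and 2.49% of them, beside 3.75% and 3.81% of all genes. Whether or not they passed, 5 were 2-fold higher and 8 were 2-fold lower, the added ones being Zfp608 and Zfp760. The 4 knockout arrays lay entirely on 1 side of the 3 wild-type arrays for 103 Zfp genes, or 42.7%, beside 54.5% of all genes. Among these, 50 were higher and 53 were lower. A second fit treated the wild-type arrays as 1 random block and each knockout pair as another. The estimated correlation within a block was 0.794. With only 1 wild-type block, spread between wild-type blocks could not be seen. A gene that passed this fit has thus not been shown to hold across independent wild-type cultures. In this fit, 8 Zfp genes were still called higher and 4 lower, beside 4.48% and 4.56% of all genes. In either direction the share was 4.98% beside 9.04%. These 12 were Zfp36, Zfp938, Zfp593, Zfp180, Zfp335, Zfp598, Zfp330 and Zfp944 among the rises, and Zfp809, Zfp365, Zfp36l2 and Zfp710 among the falls.

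**Figure D1:**
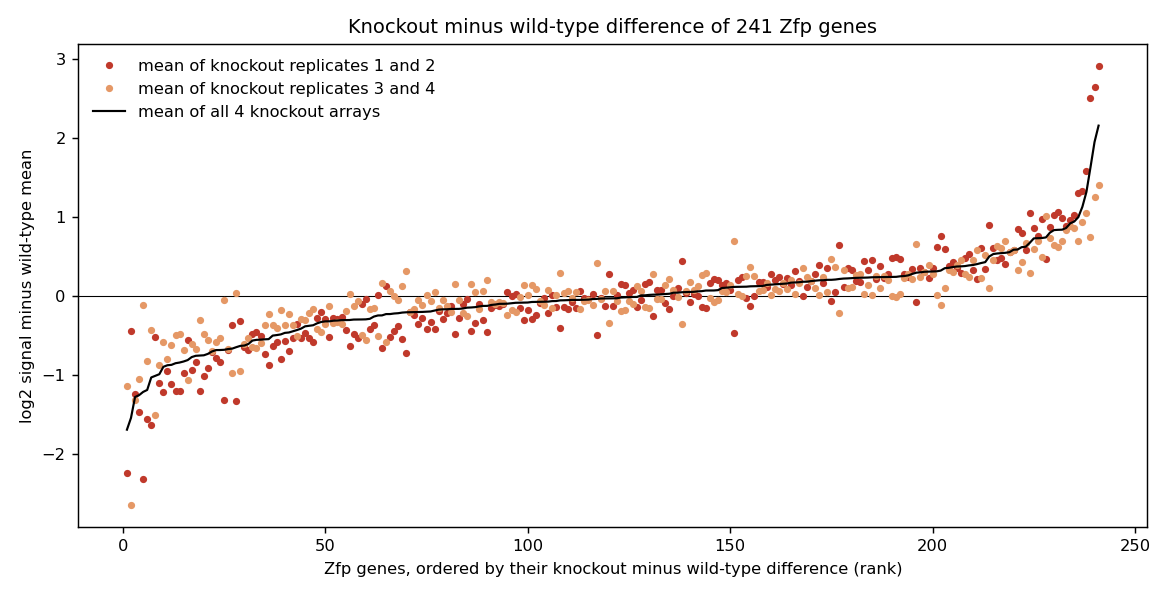
Log2 signal minus the wild-type mean for the 241 Zfp genes in order of the mean difference, with red points for the mean of knockout replicates 1 and 2, orange points for that of replicates 3 and 4, and a black line for all 4. The line crosses 0 near the middle of the order, runs from -1.69 to 2.15 and lies between the red and orange points of each gene.

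Zfp genes gave dim signals. Their median signal over the 7 arrays was 5.38, against 7.20 over all genes, and 207 of the 241 (85.9%) lay below that all-gene median. Signals of different probe sets are not amounts of RNA that can be ranked, and no detection calls were used here. For 38 Zfp genes (15.8%) the mean of at least 1 group was among the lowest 5% of genes in that group, below 3.49 in knockout or 3.51 in wild type, so that a fold between such signals is uncertain. This held for 5.93% of all genes. Among the 207 dimmer Zfp genes, 37 were higher and 37 lower in knockout, or 35.7% called. Of all 4999 genes below the median signal, 989 were higher and 1011 lower. Among the 34 brighter Zfp genes, 11 were higher and 7 lower, or 52.9% beside 46.1% of all genes above the median signal. The median difference of the 34 was 0.13, against -0.01 in those genes. In a fit without the dimmest 40% of genes, 43.9% of the 57 Zfp genes left were called, beside 49% of all genes left. The order of the shares thus depended on the cut.

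**Figure D2:**
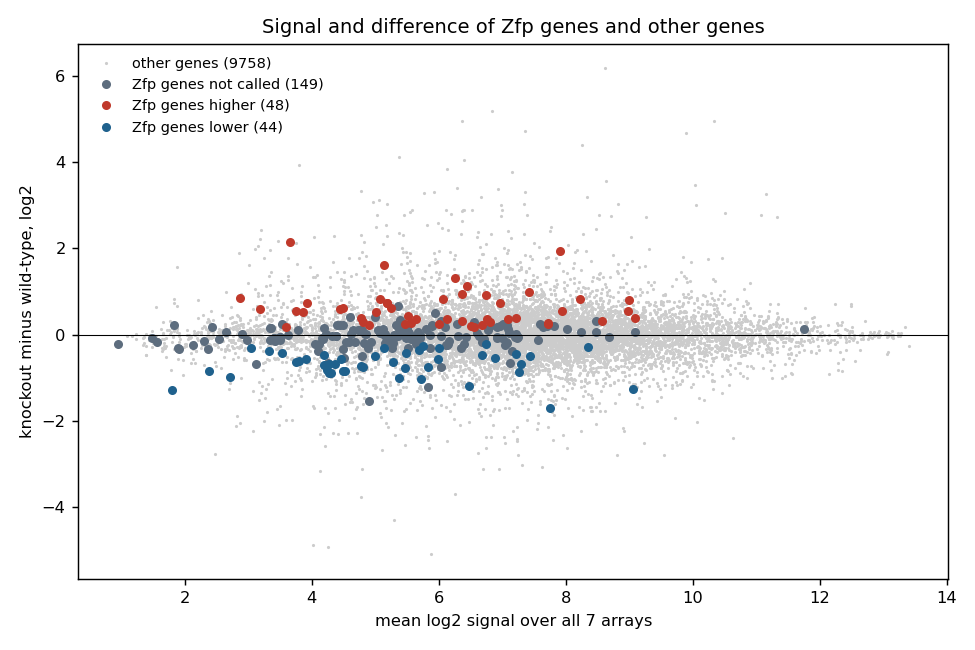
Knockout minus wild-type difference (log2) against mean log2 signal over 7 arrays, with other genes in grey and Zfp genes coloured by their limma call. Zfp genes called higher and lower lie on both sides of 0 within -1.69 and 2.15, while all genes reach from -5.10 to 6.18.

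Promoter sequence is shown for 3 genes with large or even rises and for the one that fell most. RefSeq promoter windows of GRCm38.p6, 250 bases before to 50 after the start, were given for 202 of the 241 genes, and the most upstream window of each gene was read on both strands. The letters AAATCA, the core bound by Gfi1, were in 23 of 202 Zfp windows (11.4%), beside 14.3% of 27025 windows of all genes. They were in 7 of 42 windows of higher genes (16.7%) and in 2 of 36 windows of lower genes (5.56%). Of 124 windows of genes not called, 14 had them (11.3%). Differences between these shares were not tested. The AP-1 letters TGACTCA were in 8 (3.96%, beside 5.17%) and the cyclic AMP response letters TGACGTCA in 6 (2.97%, beside 1.85%). The last 2 motifs were chosen after the differences were seen, and no motif contains another. The 250 bases before the start are given here for Zfp36, Zfp335, Zfp811 and Zfp809, 5′ to 3′ on the gene's strand, with capitals for any of these motifs.
Zfp36 (chr7:28379229-28379478, minus strand): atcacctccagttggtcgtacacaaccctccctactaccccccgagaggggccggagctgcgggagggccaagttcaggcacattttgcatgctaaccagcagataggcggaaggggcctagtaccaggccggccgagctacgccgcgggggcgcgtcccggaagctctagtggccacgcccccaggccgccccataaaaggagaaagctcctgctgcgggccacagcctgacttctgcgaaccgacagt
Zfp335 (chr2:164911751-164912000, minus strand): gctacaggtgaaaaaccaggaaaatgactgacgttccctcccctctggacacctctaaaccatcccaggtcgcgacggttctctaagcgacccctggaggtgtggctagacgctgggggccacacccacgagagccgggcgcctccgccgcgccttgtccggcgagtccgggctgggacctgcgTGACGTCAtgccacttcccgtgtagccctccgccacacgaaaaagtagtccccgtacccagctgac
Zfp811 (chr17:32809932-32810181, minus strand): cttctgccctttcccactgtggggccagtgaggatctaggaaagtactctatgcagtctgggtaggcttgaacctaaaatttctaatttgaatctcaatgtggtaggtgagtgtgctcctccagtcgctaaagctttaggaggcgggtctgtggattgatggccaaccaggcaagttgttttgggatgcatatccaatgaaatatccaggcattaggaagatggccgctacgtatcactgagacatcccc
Zfp809 (chr9:22225453-22225702, plus strand): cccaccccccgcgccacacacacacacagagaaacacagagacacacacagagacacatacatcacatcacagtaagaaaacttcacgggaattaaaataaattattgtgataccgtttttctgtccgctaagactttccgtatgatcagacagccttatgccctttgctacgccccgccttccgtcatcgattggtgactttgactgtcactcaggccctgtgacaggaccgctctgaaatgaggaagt
TGACGTCA stands in the Zfp335 promoter, and none of the 3 motifs is in the 250 bases of the other 3. Among all the largest rises and falls with a given window, only Zfp335 had any of these motifs in those bases. A missing match says only that these letters are not in these bases.

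The family members that act on mRNA went in opposite directions. Zfp36, which destabilises AU-rich cytokine mRNAs, had 9.42, 9.45, 8.11 and 7.98 in knockout replicates 1 to 4, against 6.89, 6.77 and 6.72 in the wild-type arrays. All 4 knockout arrays were above all wild-type arrays, and replicates 1 and 2 were higher than 3 and 4. The rise was 1.95 (SE 0.40, limma adjusted p = 0.00749), or 3.86-fold, with 2.64 in the first pair and 1.25 in the second. Zfp36l2, a relative with the same kind of RNA-binding fingers, moved the other way. It had 8.25, 8.37, 8.68 and 8.77 in knockout, against 9.93, 9.69 and 9.71 in wild type. The groups did not overlap, and the signal fell by 1.26 (SE 0.14, adjusted p = 0.000613), to 0.418 of the wild-type value.

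Zfp36l1, the third measured relative, rose slightly, with 8.80, 8.69, 8.71 and 8.63 in knockout and 8.36, 8.43 and 8.41 in wild type. Its difference of 0.31 (SE 0.06, adjusted p = 0.00754) did not pass with random blocks (adjusted p = 0.283). A second Zfp36l1 probe set differed by 0.29 and did not pass when every probe set was tested (adjusted p = 0.0546). Zfp36 and Zfp36l2 had 1 probe set each. Zfp36l3 was not among the named genes. All 3 genes thus passed the main test, with 2 higher and 1 lower.

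Genes for the enzymes of mRNA decay moved by less than 1 log2 unit where they passed. Of 24 measured deadenylation and decapping genes, 5 rose and 3 fell, or 33.3% called beside 43.1% of all genes, and their median difference was 0.10. None of the 8 passed with random blocks. Tob1, which links RNA-binding proteins to the deadenylase, fell by 0.78 (SE 0.19, adjusted p = 0.0138), and Btg1 of the same family rose by 0.44 (SE 0.09, adjusted p = 0.00762). Cnot10, a subunit of the CCR4-NOT deadenylase complex, rose by 0.33 (SE 0.08, adjusted p = 0.0174), and the poly(A) ribonuclease gene Parn fell by 0.34 (SE 0.09, adjusted p = 0.0183). With random blocks the adjusted p was 0.0995 for Tob1, 0.136 for Btg1, 0.378 for Cnot10 and 0.423 for Parn. Leaving out a wild-type array also ended the calls of Tob1 (replicate 1, -0.77, adjusted p = 0.051), Cnot10 (replicate 2, 0.27, adjusted p = 0.075) and Parn (replicate 1 or 2, -0.30 and -0.35, adjusted p = 0.0671 and 0.0619). Of 14 measured mRNAs reported as Zfp36 targets, 12 rose and 1 fell, or 92.9% called beside 43.1% of all genes, with a median difference of 3.28, against -0.01 over all genes. With random blocks 7 of the 13 passed, where 904 of all genes passed against 4305 in the main test. That list holds inflammatory genes already known to be high in these arrays, so its count is no independent evidence, and whether their level depends on Zfp36 was not tested.

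Zfp genes with described roles at ribosomes or in the nucleolus differed in outcome. Zfp598, a ubiquitin ligase that marks collided ribosomes, had 8.76, 8.69, 8.47 and 8.41 in knockout, against 7.78, 7.69 and 7.76 in wild type. All knockout arrays were above all wild-type arrays, and the rise was 0.84 (SE 0.10, adjusted p = 0.000753). Zfp593, whose yeast counterpart accompanies the large ribosomal subunit out of the nucleus, had 8.17, 8.16, 7.55 and 7.54, against 6.92, 6.87 and 6.79. It rose by 1.00 (SE 0.18, adjusted p = 0.00483), more in replicates 1 and 2 (1.30) than in 3 and 4 (0.69). Its probe set is of the x_at kind, whose probes can also bind other transcripts. Zfp330, which encodes a nucleolar protein, rose by 0.80 (SE 0.07, adjusted p = 0.000192), with 9.41, 9.40, 9.31 and 9.22 in knockout and 8.50, 8.56 and 8.54 in wild type. Zfp622, whose yeast counterpart acts late in maturation of the large subunit, differed by 0.14 (95% interval -0.08 to 0.36, adjusted p = 0.257), and its other probe sets by 0.18.

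Of the 10 listed RNA and ribosome genes, 2 rose, 3 fell and 5 did not pass, or 50% called beside 43.1% of all genes, with a median difference of -0.05. The falls were in Zfp638, a nuclear nucleic acid-binding protein, by 0.69 (SE 0.11, adjusted p = 0.00241), in Zfp385a, an RNA-binding protein, by 0.43 (SE 0.07, adjusted p = 0.00336), and in Zfp207, a spindle protein that binds Bub3, by 0.29 (SE 0.09, adjusted p = 0.0394). None of these 3 passed with random blocks (adjusted p = 0.067, 0.152 and 0.335), and Zfp207 also lost its call without knockout replicate 1 or 2 or any 1 wild-type array (-0.30 to -0.23, adjusted p from 0.0656 to 0.111). A second Zfp638 probe set fell as far, by 0.66. The other, dimmer Zfp207 probe sets lay between -0.01 and 0.22, and none passed when every probe set was tested. Zfp346, which binds double-stranded RNA, stood at 0.31 (adjusted p = 0.205), with 0.62 in the first knockout pair and 0.00 in the second. Zfp326 and Zfp830, both linked to splicing, stood at -0.23 and -0.17 (adjusted p = 0.328 and 0.171).

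For Zfp106, an RNA-binding protein that mouse motor neurons need, the probe set decided the outcome. The brightest of its 4 probe sets differed by 0.07 (SE 0.13, adjusted p = 0.712). When every probe set was tested on its own, the other 3 stood at 1.17, 0.83 and 0.79, with adjusted p = 0.011, 0.00619 and 0.0625. They lay between 5.28 and 7.21 in knockout and between 4.11 and 6.43 in wild type.

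**Figure D3:**
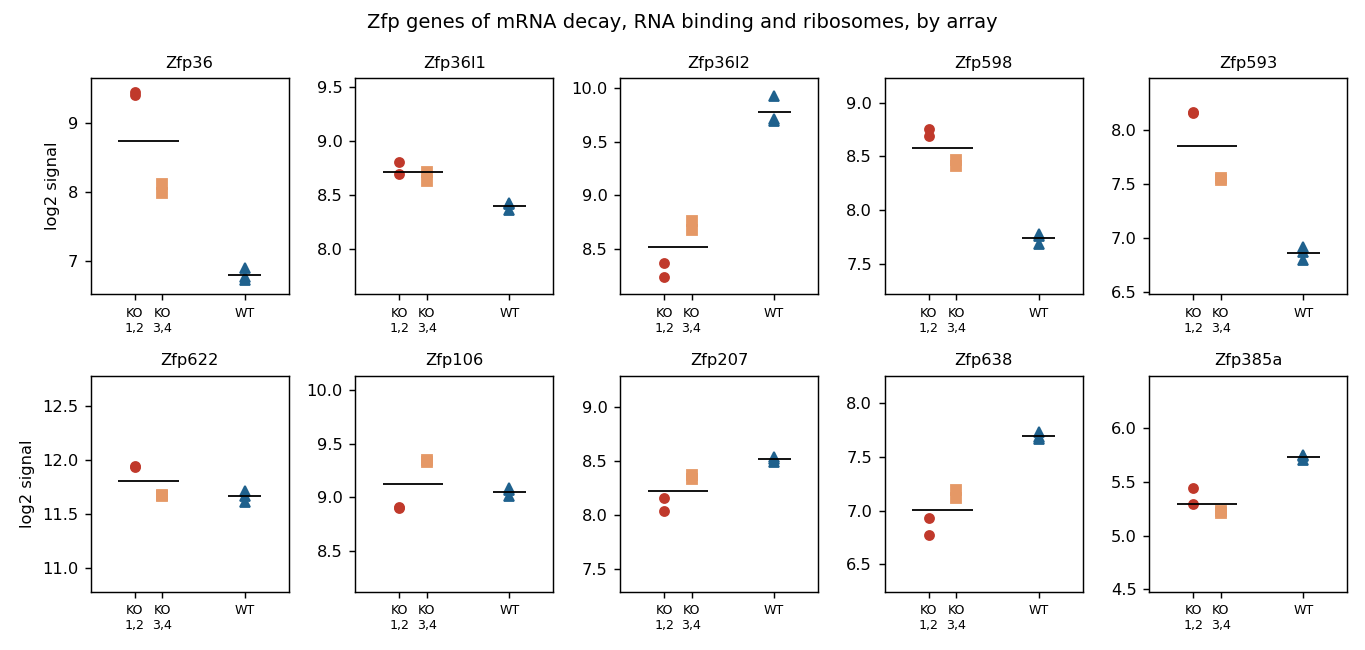
Log2 signal of 10 Zfp genes of mRNA decay, RNA binding and ribosomes in each array, with circles for knockout replicates 1 and 2, squares for 3 and 4, triangles for wild type, and lines at the group means; each panel has its own axis range. Zfp36, Zfp598 and Zfp593 lie above wild type in all 4 knockout arrays, Zfp36l2 and Zfp638 lie below it, and Zfp622 and Zfp106 overlap it.

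Among DNA-binding members, the largest fall of the whole family was in Zfp809. In mice this KRAB zinc finger protein recognises a sequence that retroviruses use to start reverse transcription and brings TRIM28 to integrated viral DNA. It had 6.54, 6.41, 7.57 and 7.59 in knockout, against 8.67, 8.72 and 8.78 in wild type. Every knockout array was below every wild-type array, and replicates 1 and 2 were lowest. The signal fell by 1.69 (SE 0.32, adjusted p = 0.00536), to 0.309 of wild type, with differences of -2.25 and -1.14 in the pairs.

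Genes of the KRAB corepressor machinery were called in both directions. Of 18 measured, 2 rose and 5 fell, with a median difference of -0.12, beside 21.5% higher and 21.6% lower among all genes. Trim28 itself fell by 0.32 (SE 0.09, adjusted p = 0.0209) and did not pass with random blocks (adjusted p = 0.302). Cbx5, which encodes a heterochromatin protein, fell by 0.96 (SE 0.18, adjusted p = 0.00476), the DNA methyltransferase gene Dnmt3a by 0.71 (SE 0.07, adjusted p = 0.000277) and Pphln1, of the HUSH silencing complex, by 0.63 (SE 0.15, adjusted p = 0.0128). Atf7ip, a partner of the methyltransferase SETDB1, rose by 0.47 (SE 0.09, adjusted p = 0.00629). Of these 5, Dnmt3a passed with random blocks (adjusted p = 0.044), Cbx5, Pphln1 and Atf7ip did not (adjusted p = 0.0574, 0.118 and 0.313), and for Pphln1 and Atf7ip the mean of all probe sets had the opposite sign (0.10 and -0.15). Pphln1 also lost its call without wild-type replicate 2 (-0.61, adjusted p = 0.0513).

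Of 25 listed Zfp genes with described roles in gene regulation 19 were measured, and 4 rose, 2 fell and 13 did not pass, or 31.6% called beside 43.1% of all genes, with a median difference of 0.05. Zfp335, a coactivator that neural progenitors and T cells of mice need, was among the most even rises. It had 7.21, 7.13, 7.11 and 7.08 in knockout, against 6.33, 6.13 and 6.17 in wild type, and rose by 0.92 (SE 0.07, adjusted p = 0.000142). The knockout arrays spanned 0.13 and did not overlap with wild type. Zfp131, a BTB-domain factor, rose by 0.54 (SE 0.07, adjusted p = 0.000987) and Zfp64 by 0.37 (SE 0.09, adjusted p = 0.014). Zfp217, found in human cells with the LSD1 and CoREST corepressors that Gfi1 also uses, fell by 0.50 (SE 0.08, adjusted p = 0.00225). These last 3 did not pass with random blocks (adjusted p = 0.0804, 0.334 and 0.0922), and Zfp64 also lost its call without wild-type replicate 2 or 3 (0.37 and 0.31, adjusted p = 0.0557 and 0.0598). A second Zfp64 probe set differed by 0.08 (adjusted p = 0.49 when every probe set was tested).

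Zfp91, a ubiquitin ligase of non-canonical NF-kappaB signalling, rose by 0.38 (SE 0.08, adjusted p = 0.00877) by its brightest probe set, with 9.39, 9.33, 9.18 and 9.12 in knockout and 8.89, 8.90 and 8.85 in wild type. A second bright probe set stood at -0.32 (adjusted p = 0.149), and a dim one fell by 0.43 (adjusted p = 0.0328). The probe sets of Zfp91 thus disagreed in direction. Zfp148, which binds GC-rich promoter DNA, also divided by probe set, with 0.04 for the brightest (adjusted p = 0.715) and -0.61 and -0.67 for another 2 that passed (adjusted p = 0.0366 and 0.0322).

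The remaining regulators did not pass the test by their brightest probe set. Zfp281 differed by -0.03 (95% interval -0.19 to 0.12), Zfp318 by 0.05 (-0.12 to 0.22) and Zfp687 by -0.02 (-0.25 to 0.22). For these 3 probe sets the intervals of the main test exclude a 2-fold change. Zfp592 differed by 0.04 (adjusted p = 0.642) by its brightest probe set, but another of its 3 was higher by 0.51 when every probe set was tested (SE 0.13, adjusted p = 0.0214). Zfp644, whose human counterpart works with a histone methyltransferase, stood at -0.37 (adjusted p = 0.0696). All 5 of its probe sets were below 0, and 1 of them passed, at -0.46 (SE 0.09, adjusted p = 0.00852). Zfp110, Zfp219, Zfp384, Zfp462, Zfp516, Zfp568 and Zfp703 did not pass either, with differences between -0.12 and 0.24, although a second, very dim Zfp462 probe set was lower by 0.53 (SE 0.09, adjusted p = 0.00374).

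The largest rise of all was in Zfp811, with 5.55, 5.12, 4.09 and 3.55 in knockout, against 2.68, 2.36 and 2.22 in wild type. The wild-type signals were among the lowest 5% of genes, so the size of 2.15 (SE 0.46, adjusted p = 0.00909) is uncertain. Zfp949 rose by 1.63 (SE 0.53, adjusted p = 0.0418), with 6.74, 6.68, 4.97 and 4.94 in knockout and 4.62, 3.83 and 4.17 in wild type. Replicates 1 and 2 stood well apart from 3 and 4, whose signals were close to the highest wild-type array. Neither gene passed with random blocks (adjusted p = 0.0921 and 0.201). Zfp949 also lost its call without knockout replicate 1 or 2 (1.32 and 1.34, adjusted p = 0.0802 and 0.0825) and without wild-type replicate 1, 2 or 3 (1.83, 1.44 and 1.60, adjusted p = 0.0728, 0.134 and 0.112).

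Zfp692 and Zfp938 rose more evenly. Zfp692 had 7.05, 7.11, 6.51 and 6.59 in knockout, against 5.69, 5.59 and 5.22 in wild type, a rise of 1.32 (SE 0.19, adjusted p = 0.00166; 0.0615 with random blocks). Zfp938 had 7.20, 7.06, 6.68 and 6.80, against 5.82, 5.75 and 5.85, a rise of 1.13 (SE 0.13, adjusted p = 0.000627). Both stayed apart from wild type in every array. Zfp180 rose by 0.94 (SE 0.08, adjusted p = 0.000159), with knockout arrays between 6.67 and 6.88 and wild-type arrays between 5.75 and 5.90. Zfp867 rose by 0.86 (SE 0.10, adjusted p = 0.000633), but both of its group means, 3.24 in knockout and 2.38 in wild type, were among the lowest 5% of genes.

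Among the other falls, Zfp710 had 6.65, 6.62, 7.16 and 7.10 in knockout, against 7.73, 7.78 and 7.77 in wild type, and fell by 0.87 (SE 0.15, adjusted p = 0.00364). Zfp362 had 5.58, 5.64, 6.47 and 6.21, against 7.10, 7.25 and 7.13, and fell by 1.19 (SE 0.22, adjusted p = 0.00519; 0.052 with random blocks). In both genes the first knockout pair was lower than the second, and no knockout array reached wild type. Zfp365 fell by 1.28 (SE 0.08, adjusted p = 5.41e-05) and Zfp229 by 0.99 (SE 0.11, adjusted p = 0.000592), both between signals too low in either group for the size to be certain. Zfp324 fell by 0.88 (SE 0.12, adjusted p = 0.00121), with 3.65 to 4.05 in knockout and 4.62 to 4.92 in wild type. Zfp758 fell by 0.90 (SE 0.20, adjusted p = 0.0107), Zfp647 by 1.01 (SE 0.31, adjusted p = 0.0356) and Zfp931 by 1.03 (SE 0.35, adjusted p = 0.0496). With random blocks Zfp229, Zfp324, Zfp758, Zfp647 and Zfp931 did not pass, at adjusted p = 0.0565, 0.13, 0.119, 0.249 and 0.157. Zfp647 lost its call without knockout replicate 3 or 4, and Zfp931 without knockout replicate 1 or 2, and both lost it without any 1 of the wild-type arrays. Over these leave-outs Zfp647 lay between -1.12 and -0.84 (adjusted p from 0.0605 to 0.116) and Zfp931 between -1.08 and -0.83 (0.0939 to 0.141).

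**Figure D4:**
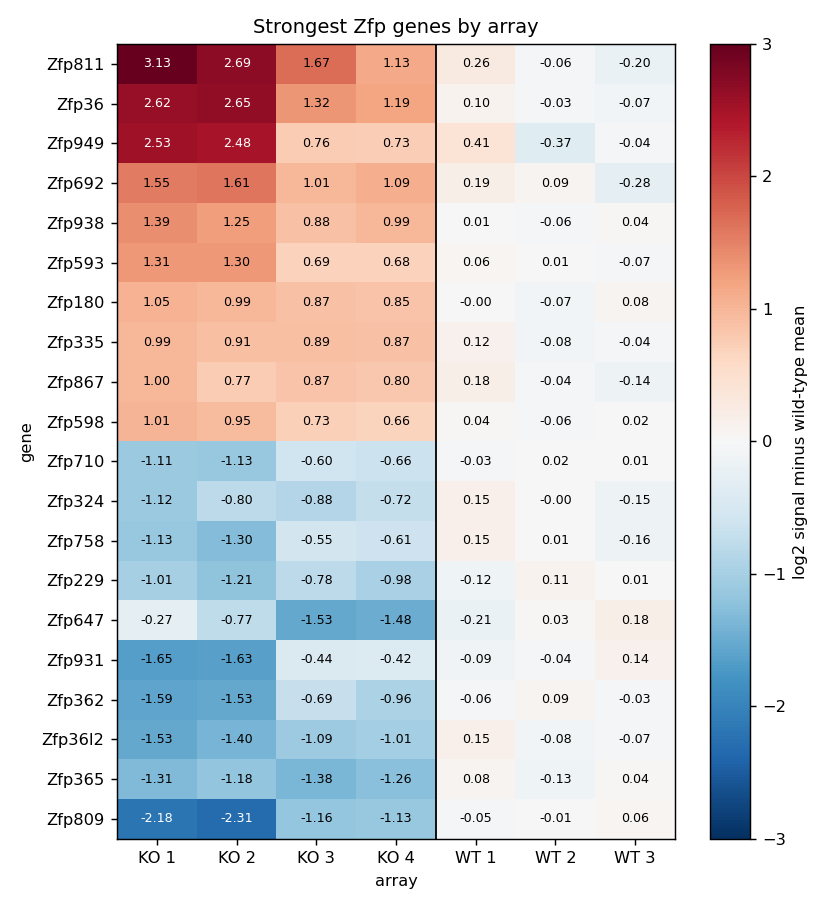
Log2 signal minus the wild-type mean of the 10 largest rises and 10 largest falls that passed the threshold without overlap, by array, with knockout arrays left of wild-type arrays. Wild-type arrays stay within 0.41 of 0, and knockout replicates 1 and 2 are farther from 0 than 3 and 4 in 18 of the 20 genes, the exceptions being Zfp365 and Zfp647.

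The knockout pairs disagreed on some genes. Against the wild-type mean, the first pair was at least 2-fold above for 10 Zfp genes and below for 15, or 10.4% beside 12.8% of all genes. The second pair was at least 2-fold above for 4 and below for 6, or 4.15% beside 6.25%. These counts share the same wild-type arrays. The pairs themselves lay at least 2-fold apart for 11 Zfp genes, or 4.56% beside 4.42% of all genes. These 11 were picked by that gap, so their values are a description.

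Zfp608 was low in the second pair, with 5.32 and 5.37 in knockout replicates 1 and 2, 3.09 and 3.20 in replicates 3 and 4, and 5.93, 5.77 and 5.67 in wild type. Zfp760 was the opposite case, with 4.36 and 4.07 in replicates 1 and 2, 6.45 and 6.38 in replicates 3 and 4, and 6.55, 6.50 and 6.54 in wild type. In Zfp760 the second pair was within 0.17 of every wild-type array, while the first pair was over 2 log2 units below. Zfp266 had 6.22 and 6.12, then 7.61 and 7.45, against 7.42 to 7.55 in wild type. Zfp182 had 2.34 and 2.06, then 3.58 and 3.35, against 3.26 to 3.92, with knockout means among the lowest 5% of genes. In these 4 genes 1 pair lay nearer to wild type and the other far below it.

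Zfp930 and Zfp518a had wild type between the pairs. Zfp930 had 4.53 and 4.50 in replicates 1 and 2, 5.68 and 5.68 in replicates 3 and 4, and 4.82 to 5.11 in wild type. Zfp518a had 5.62 and 5.44, then 6.63 and 6.51, against 6.16 to 6.32. Their mean differences, 0.11 and -0.21, hide a gap of over 1 log2 unit between the pairs. None of these 6 genes passed the main test (adjusted p from 0.0855 to 0.811). The other 5 were Zfp811, Zfp36, Zfp949, Zfp931 and Zfp809, where both pairs lay on the same side of wild type.

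**Figure D5:**
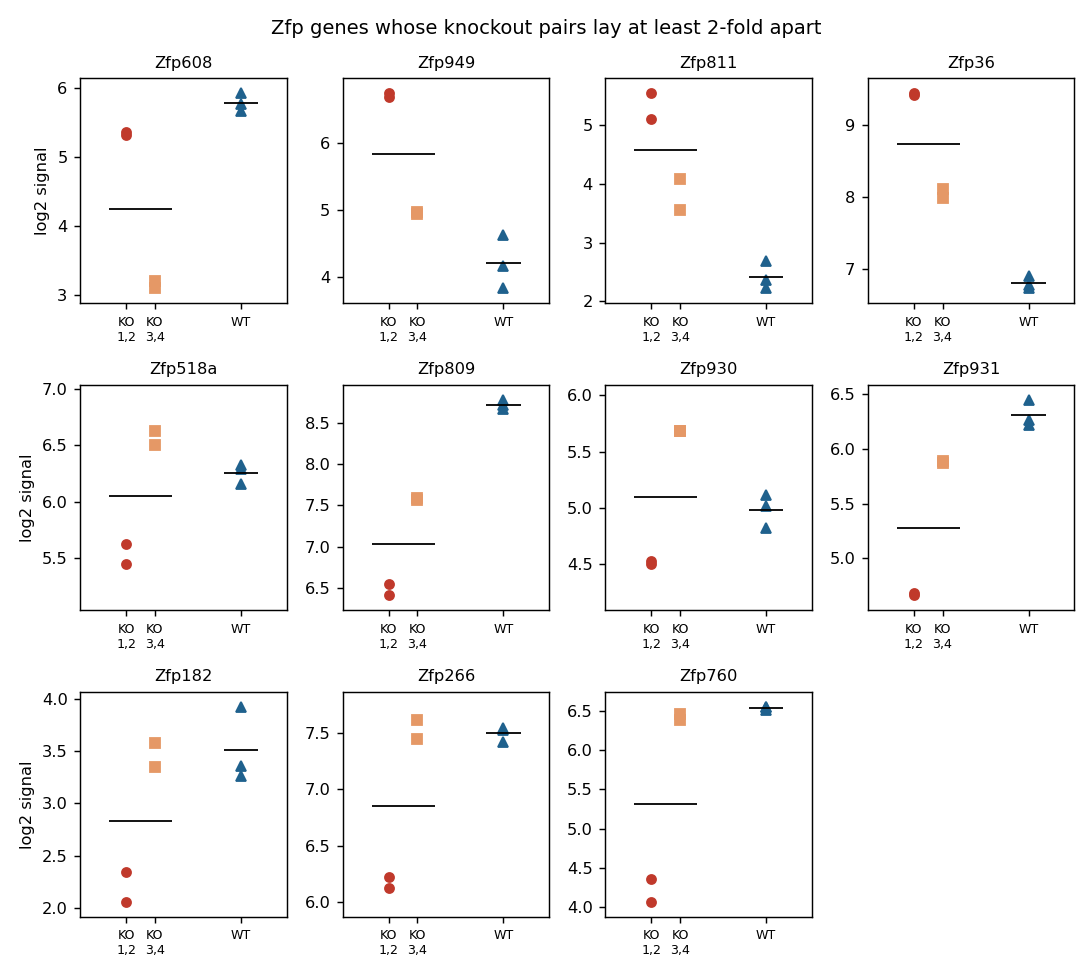
Log2 signal per array of the 11 Zfp genes whose knockout pairs lay at least 2-fold apart, with circles for replicates 1 and 2, squares for 3 and 4, triangles for wild type, and lines at the group means; each panel has its own axis range. Zfp760 and Zfp266 show replicates 3 and 4 level with wild type, and Zfp930 and Zfp518a show wild type between the pairs.

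Of the 241 genes, 70 had more than 1 probe set, and 350 probe sets were read in all. When every probe set was tested on its own, 57 of the 350 were higher and 61 lower, beside 40.9% called among all 17335. Of the 70 genes, 35 had at least 1 called probe set, 6 had all of them called, and 9 had probe sets called in both directions. The same counts were not made for other genes with more than 1 probe set, so whether Zfp genes differ in this was not tested. These 9 were Zfp266, Zfp451, Zfp560, Zfp606, Zfp729a, Zfp800, Zfp84, Zfp91 and Zfp983. Zfp266 had 1 probe set at 1.58 (SE 0.29, adjusted p = 0.00529) and another at -0.61 (SE 0.13, adjusted p = 0.011). Zfp451, a SUMO ligase, had its brightest at 0.73 (SE 0.16, adjusted p = 0.0107) and another at -0.93 (SE 0.19, adjusted p = 0.00867). Zfp84 had -0.76 (SE 0.09, adjusted p = 0.000932) against 0.72 (SE 0.08, adjusted p = 0.000825). Which transcripts each probe set reads was not examined. In the counts over genes these 9 stand by their brightest probe set, and their direction depends on that choice. Probes of the s_at and x_at kinds, which can bind several related transcripts, represented 9 and 15 of the 241 genes.

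Many Zfp genes lie close to others of the series, and neighbours did not all move alike. Neighbours were taken by gene order alone, and how alike their sequences are was not examined. By gene order in the RefSeq annotation of GRCm38.p6, 130 of the 241 genes fell into 32 runs in which at most 3 other protein-coding genes separated 1 Zfp gene from the next. Of the 130 genes in runs 48 were called (36.9%), as were 44 of the 111 genes outside runs (39.6%), beside 43.1% of all genes. There were 98 neighbour pairs, and in 17 both genes were called, 10 in the same direction and 7 in opposite directions. The longest run, from Zfp677 to Zfp945 with 16 measured members, had 4 higher and 4 lower. In it, Zfp944 rose by 0.73 (SE 0.07, adjusted p = 0.000263), while its neighbours Zfp943 and Zfp758 fell by 0.85 (SE 0.24, adjusted p = 0.0238) and 0.90. A second, dimmer Zfp944 probe set did not show the rise, at -0.13 (SE 0.18, adjusted p = 0.575 when every probe set was tested). Zfp943 lost its call without knockout replicate 2 or wild-type replicate 1 or 2 (-0.78, -0.81 and -0.80, adjusted p = 0.0544, 0.081 and 0.0828).

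Called genes of some runs fell, and those of others divided. In the run of 11 from Zfp455 to Zfp729a, 3 fell (Zfp874b, Zfp58 and Zfp87, by 0.61, 0.57 and 0.35, adjusted p = 0.0249, 0.0442 and 0.0489), 8 did not pass, and the median difference was -0.32. Leaving out 1 array ended these calls, with adjusted p up to 0.0536 for Zfp874b (knockout replicate 1 or wild-type replicate 1), 0.131 for Zfp58 and 0.121 for Zfp87 (any array but knockout replicate 1). In the run of 5 from Zfp579 to Zfp580, 3 fell and 2 did not pass, with Zfp524, Zfp865 and Zfp784 at -0.56, -0.63 and -0.70 (adjusted p = 0.00194, 0.000556 and 0.00121). The run of 8 that holds Zfp811 had 3 higher, with Zfp799 next to it at 0.43 (adjusted p = 0.00832), and 2 lower, Zfp763 and Zfp563 at -0.78 and -0.67 (adjusted p = 0.0033 and 0.00212). None of the genes named here from these runs, apart from Zfp944, passed with random blocks. Where neighbours are near copies they can share probes, so their values may not be independent.

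Other zinc finger symbol series are given for scale. Of 34 Zbtb genes 3 rose and 8 fell (median -0.11), or 32.4% called, beside 43.1% of all genes. Of 16 Zc3h genes, many of which encode RNA-binding proteins, 9 rose and 3 fell (median 0.32), or 75% called. With random blocks none of the 11 Zbtb calls and 3 of the 12 Zc3h calls passed (Zc3h12a, Zc3h12c and Zc3h6). Over all genes 904 passed in that fit, against 4305 in the main test. Of 8 Zkscan genes 2 rose and 2 fell, of 4 Zscan genes 1 rose and 1 fell, and of 11 Klf genes 3 rose and 2 fell, with shares called of 50%, 50% and 45.5%. Differences between these series and the Zfp genes were not tested.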

How the data were processed

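Total RNA of 4 arrays labelled RAW GfI1-1 and 3 labelled RAW WT was measured on Affymetrix arrays. The authors deposited intensity values on a linear scale for 19431 probe sets, and the submitters' processing notes name RMA, giving no version. Array medians were 93.8 to 101. RMA evens out array-wide differences, so a global change of RNA content cannot be read. Here log2 was taken with no offset. Of the probe sets, 17335 had 1 gene symbol in the platform annotation, 532 several and 1564 none, and only the first were used, 1 per gene (highest mean). All 241 Zfp symbols matched RefSeq gene numbers. limma 3.58.1 (R 4.3.3) compared the groups over 9999 genes with two-sided moderated tests and Benjamini-Hochberg adjustment at 0.05, and intervals are 95%. The fit was tried on simulated data with independent arrays, which does not test it on tight knockout pairs. No pairing of the groups by replicate number was seen. Deviations of same-numbered arrays correlated at 0.0939, -0.085 and 0.0865, beside -0.135 to 0.108 for arrays of different number. The gap between the knockout pairs enters these deviations, so this check could not exclude pairing. Array number limits precision.

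Members and lists were chosen with earlier results of these data known. Named genes are the 10 largest rises and 10 largest falls without overlap, the 5 brightest, the role lists, up to 4 called genes per cofactor list, Trim28 and Gfi1. Zfp genes named for their knockout pairs, their probe sets or their neighbours, Zfp944, and Trim28 were chosen after their values were seen. Patterns in the proteins were not analysed here. Alternatives covered normalization, centring, dim genes, the log offset, the prior, probe sets, a fold test, blocks and left-out arrays.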

Additional observations from a re-analysis of the deposited data

Results flagged for a closer look

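Among the 4 knockout arrays, replicate 1 stood apart for the poly(A) ribonuclease gene Parn, at 7.06 against 6.79, 6.82 and 6.82 in replicates 2 to 4, with a gap of 0.873 of the group's range. The critical value for 4 samples is 0.829. Of 80 genes tested in this way 1 was flagged, Parn, where chance flags about 1 in 20 groups.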

How the results depend on the processing

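The counts of called Zfp genes moved with the processing as follows, from 48 higher and 44 lower. With random blocks they were 8 and 4, with a test against a fold of 1.2 they were 18 and 19, and with dim genes left out, which kept 57 Zfp genes, they were 16 and 9. Over all genes the share called under these 3 settings was 9.04%, 17.5% and 49%, against 43.1%. Among the Zfp genes it was 4.98%, 15.4% and 43.9%, against 38.2%. Without knockout replicates 3 and 4 the counts were 72 and 83, or 64.3% called beside 68.1% of all genes. Without 1 and 2 they were 64 and 58, or 50.6% beside 57%. Leaving out 1 array gave 29 to 46 higher and 28 to 43 lower, or 25.3% to 36.5% called beside 28.8% to 44.7%. The replicate block gave 37 and 37, or 30.7% beside 38.1%, though no pairing by number was seen. The median of -0.03 became 0.0168 with quantile normalization, 0.10 without dim genes and 0.0145 without knockout replicates 1 and 2, and lay between -0.0518 and 0.00252 when 1 array was left out.

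A sign is counted as changed here where the value passed the threshold in at least 1 of the settings compared. With the mean of all probe sets, Zfp91 stood at -0.12, Zfp148 at -0.36, Zfp451 at -0.16, Pphln1 at 0.10 and Atf7ip at -0.15. Without knockout replicates 3 and 4, Zfp106 stood at -0.15 and Zfp930 at -0.47, and without replicates 1 and 2, Zfp518a stood at 0.31. Causes were not tested. Of 42 named Zfp genes called, the replicate block ended 5 calls, random blocks 30, the fold test 15, a left-out array 3 to 8, and each of the remaining settings at most 3. Testing every probe set was added after the data were seen and ended 2. Genes with a changed sign are not in these counts. With the mean of all probe sets, Zfp91 and Zfp451 thus also no longer stood as higher. With dim genes left out, only 15 of the 42 were tested. Limits are the dim signals of most Zfp genes, probe sets that disagree and a knockout group of 2 tight pairs.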
